A study of Caenorhabditis elegans with 12 samples.

Results

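C-type lectin genes were compared between C. elegans larvae given a cocktail of dauer-inducing ascarosides and larvae given ethanol. The members are the genes whose symbol starts with clec-, and the table of N2 larvae held 240 of them among 46726 gene identifiers. Of the 240, 112 had a mean of at least 5 normalized counts over the 6 libraries and were tested, beside 14965 genes in all. The rule for membership uses the symbol and no measured value.

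The study exposed late L1 larvae of the wild-type Bristol strain N2 to a mixture of ascr#8, ascr#3 and ascr#2, each in the same amount. One liquid culture was divided into 6 at 6 h after hatching, with 3 cultures treated (libraries 1 to 3) and 3 given ethanol alone (libraries 4 to 6), and RNA of whole larvae was taken 3 h later. All 6 cultures were grown at 20 °C on E. coli as food and come from one starting population, so the spread between libraries is that between parallel cultures. By the sample labels the mixture came to 5 µM in all, while the methods of the study state a lower concentration. Cultures of daf-22(ok693) mutants, with and without ascarosides, belong to the same series and were not analysed here.

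C-type lectins carry a fold that in vertebrates often binds sugars in the presence of calcium. The nematode family is large, and many members have signal peptides and are made in the intestine, where their transcripts are known to change when worms meet different bacteria. They are therefore often read as part of the worm's innate immune output, although sugar binding has been shown for few of them. Ascarosides are small glycolipids that worms release and sense through neurons, and at high density they favour entry into the dauer stage.

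The 6 libraries held between 11133417 and 19116807 reads on genes, the fewest in treated library 3. A single read is worth between 0.778 and 1.30 normalized counts. Markers of intestine, epidermis, body wall muscle, pharynx, neurons and coelomocytes were all detected. The 6 yolk genes of adults summed to 47.2 to 54.2 normalized counts in treated and 57.6 to 63.8 in control libraries, without overlap. The best expressed of them, vit-1, averaged 41.5 in treated and 36.7 in control cultures, with overlap. The lower treated sums came from vit-2 to vit-6, whose means were 8.43 or less. The 6 major sperm protein genes summed to at most 5.22 in any library, with msp-3, msp-10 and msp-19 at 0. A gene is named called where its p in limma, adjusted by Benjamini and Hochberg's method, was under 0.05. That was so for 527 of 14965 tested genes (3.52%), 309 of them higher with ascarosides and the others lower. In bulk RNA of whole animals, fewer cells of a type and less RNA per cell cannot be told apart.

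Most of the family was silent or nearly so at this stage. Of the 240 members, 26 had no read in any library and 102 had reads but a mean under 5. Of all 46726 identifiers, 21906 had no read and 9855 had reads but a mean under 5, so low counts were not particular to the family. A count of 0 allows up to 3 reads, which is 2.33 to 3.91 normalized counts depending on the library. Another 59 members had means of 5 to 50, 40 of 50 to 500, 12 of 500 or more, and clec-63 was far above these. Just inside the limit were clec-103 (mean 5.04) and clec-43 (5.17), and just outside it clec-147 (4.87) and clec-58 (4.63). The members lie on all 6 chromosomes. Of the 86 on chromosome V 40 were tested, of the 53 on IV 34, of the 48 on II 22, of the 36 on I 9, of the 14 on III 4 and of the 3 on X 3.

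clec-63 (WBGene00009394) on chromosome II dominated the family. Treated libraries 1 to 3 held 18364, 20572 and 18586 normalized counts of it, and 15549, 19198 and 17324 in control libraries 4 to 6. The groups overlapped, and its log2 fold change was 0.15 (95% interval -0.12 to 0.42, adjusted p = 0.648 in limma). Per kb of exon it averaged 14083 normalized counts, followed by clec-50 with 3770, clec-1 with 3686, clec-65 with 1300 and clec-150 with 743. None of these 5 was called. In clec-150 the treated values lay below the controls, at a log2 fold change of -0.33 (adjusted p = 0.150, limma). Without control library 4 clec-150 was called (adjusted p = 0.0176, limma). clec-50 averaged 4095 ± 216 normalized counts in treated and 3821 ± 222 in control cultures, and clec-1 averaged 2630 ± 255 in treated and 3046 ± 525 in control cultures (SD, n = 3 each). The summed level of all 240 members came to 42013, 44865 and 42363 with ascarosides and to 39378, 45685 and 43005 in the control libraries, so the total overlapped between the groups. The share of that sum on clec-63 was 43.7%, 45.9% and 43.9% in treated and 39.5%, 42.02% and 40.3% in control libraries, with the treated shares above the controls. A two-sided exact permutation test gave p = 0.1, the smallest that 3 against 3 cultures allow.

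**Figure D1:**
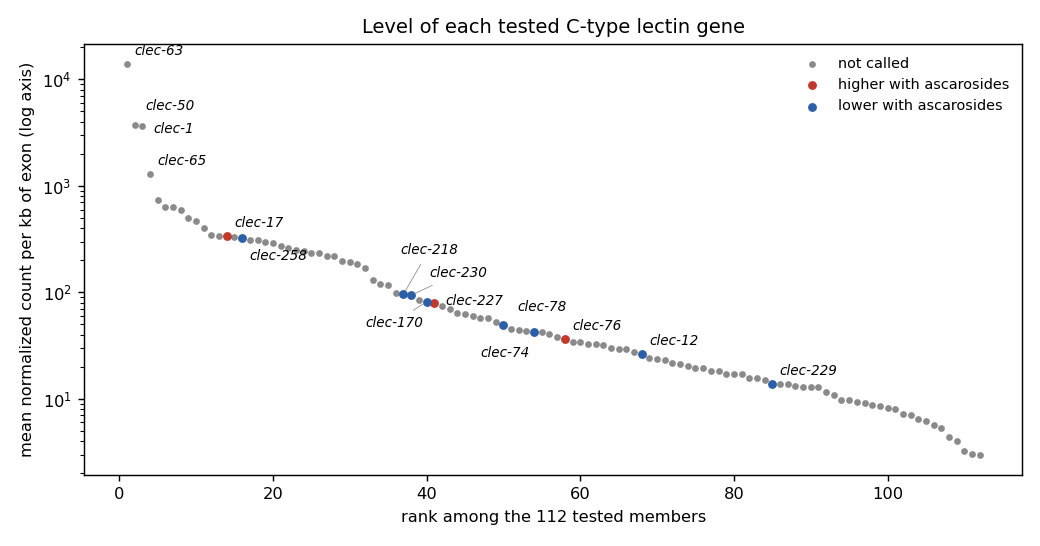
Mean normalized count per kb of exon over the 6 libraries (log axis) for the 112 tested C-type lectin genes, ranked from the highest, with genes higher with ascarosides in red, lower in blue and the rest in grey. clec-63 stands at 14083 and the called members lie between 337 (clec-17) and 13.9 (clec-229), below the top of the family.

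After 3 h with ascarosides, 11 of the 112 tested members (9.82%) were called, against 3.52% of all tested genes. Of the 11, 3 were higher (clec-76, clec-227 and clec-17), where 2.06% of all tested genes were called higher, and 8 were lower (clec-229, clec-74, clec-258, clec-12, clec-230, clec-170, clec-218 and clec-78), where 1.46% were called lower. The family as a whole did not shift to one side. Its median log2 fold change was 0.02 with 57 members above and 55 below 0, beside a median of 0.002 over all tested genes. The members did scatter more, with a median absolute log2 fold change of 0.34 against 0.18 over all genes, but they were also fewer in reads (median mean of 43.1 against 191 normalized counts). Among genes with a mean of at least 50, 9 of 53 members (16.98%) were called against 4.45% of all such genes. The median absolute change there was 0.25 against 0.15, and the groups were apart in 35.8% against 21.3%. At a mean of 5 to 50, 2 of 59 members (3.39%) were called against 1.05% of all such genes. There the median absolute change was 0.42 against 0.38, and the groups were apart in 11.9% against 14.1%. At an unadjusted p under 0.05 in limma were 7 members higher and 18 lower, where 8.05% and 7.13% of all tested genes were. At an unadjusted p under 0.001 in limma were 3 higher and 7 lower, where 1.66% and 1.2% of all genes were (2.87% together). The study lists genes at a p of 0.001 after edgeR and DESeq, without stating whether it was adjusted, so the 2 levels are not the same measure. The 2 groups were apart in 26 members (23.2%, against 19.3% of all tested genes), with treated values above in 10 (9.78% of all genes) and below in 16 (9.53%).

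The number of called members depended on single libraries. It was 4 without treated library 1, 4 without treated library 2, 5 without treated library 3 and 6 without control library 6, and it was 16 without control library 4 and 10 without control library 5. The 8 members lower became 3, 3, 4 and 3 without treated libraries 1, 2 and 3 and control library 6, and 5 without control library 5. Without control library 4 there were 13. The 3 members higher became 1 without any of the treated libraries and 5 without control library 5. limma without the trend of variance on expression called 0 members, with 25 at an unadjusted p under 0.05, as many as in the fit with the trend. On the recovered reads edgeR called 11 members and 3.6% of all genes. DESeq2 called 12 members and 4.79% of the 13224 genes to which it gave an adjusted p. Some low members, such as clec-24 and clec-27, received none. Both lists held all 11.

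**Figure D2:**
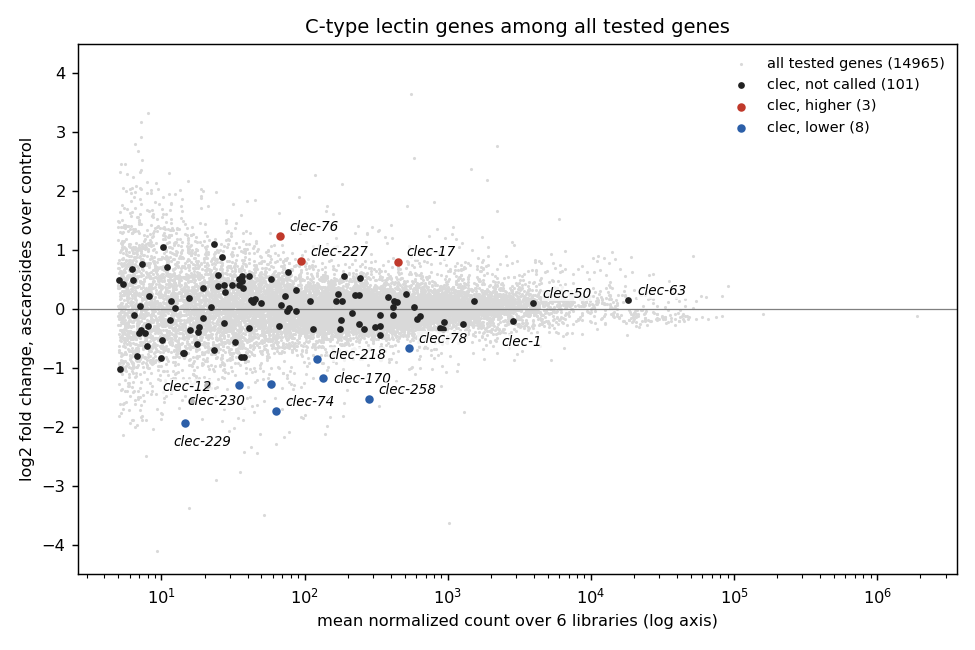
Log2 fold change of ascarosides over control (vertical axis) against the mean normalized count over the 6 libraries (log axis) for all 14965 tested genes in light grey and the 112 C-type lectin genes in black, red (called higher) or blue (called lower). The called members reach from -1.93 (clec-229) to 1.24 (clec-76) and have means between 14.5 and 536, while clec-63 at the right lies at 0.15.

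clec-76 (WBGene00021587, chromosome IV) had the largest rise. It stood at 92.7, 97.0 and 92.6 normalized counts in treated libraries 1 to 3, against 56.0, 24.5 and 43.7 in control libraries 4 to 6. The treated values were nearly equal and all above the controls, which spread more than 2-fold. The log2 fold change was 1.24 with a standard error of 0.277, a 2.36-fold rise (adjusted p = 0.0157, limma). Without treated library 1, 2 or 3 the adjusted p in limma was 0.0869, 0.117 or 0.0686.

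clec-17 (WBGene00008477, chromosome I) was the most abundant of the 3 and the most even between cultures. Its values were 596, 552 and 558 in the treated and 317, 348 and 314 in the control libraries. The log2 fold change of 0.80 (standard error 0.121) is a 1.74-fold rise (adjusted p = 8.08e-04, limma), and it stayed called with any one library left out, at an adjusted p of 0.0130 or lower. clec-17 is among the members known for changed expression in worms exposed to pathogenic bacteria.

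clec-227 (WBGene00008593, chromosome V) stood at 104, 124 and 134 normalized counts with ascarosides, against 69.2, 74.6 and 60.5 in the controls. It rose 1.76-fold (log2 fold change 0.81, standard error 0.20, adjusted p = 0.0299, limma). Without treated library 1, 2 or 3 its adjusted p was 0.0737, 0.175 or 0.166, and without control library 6 it was 0.0890.

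Among the members that fell, clec-258 (WBGene00010928, chromosome V) and clec-170 (WBGene00009515, chromosome IV) were called with any one library left out. clec-258 had 121, 141 and 163 normalized counts in treated libraries 1 to 3, against 272, 557 and 446 in control libraries 4 to 6. All treated values lay far under the lowest control, and the fall was 2.89-fold (log2 fold change -1.53, standard error 0.21, adjusted p = 4.03e-04, limma). clec-170 had 90.2, 75.1 and 78.2 in the treated and 156, 228 and 172 in the control libraries. This is 2.25-fold lower (log2 fold change -1.17, standard error 0.191, adjusted p = 0.00149, limma).

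The largest fall by fold was that of a gene with few reads, clec-229 (WBGene00010355, chromosome V). Its values were 5.90, 6.65 and 3.91 in the treated libraries, 7, 7 and 3 reads, and 25.7, 19.2 and 25.8 in the controls. The groups were far apart on this low scale, at a log2 fold change of -1.93 (95% interval -2.93 to -0.94, adjusted p = 0.0289, limma). Its neighbour clec-230 (WBGene00007806) had 30.3, 43.7 and 27.4 normalized counts in the treated and 67.7, 75.7 and 104 in the control libraries. This is 2.41-fold lower (log2 fold change -1.27, adjusted p = 0.0120, limma). The call of clec-229 was lost, with an adjusted p in limma between 0.0552 and 0.102, without any one library but control library 5 (0.0391). That of clec-230 was lost without treated library 1 (0.070) or 3 (0.0649) or control library 6 (0.0620).

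clec-74 (WBGene00021585, chromosome IV) showed the widest control spread of the called genes. In treated libraries 1 to 3 it stood at 30.3, 20.0 and 27.4 normalized counts, against 42.01, 164 and 95.2 in control libraries 4 to 6. Control library 4 lay near the treated values and library 5 nearly 4-fold above it. The log2 fold change was -1.73 (95% interval -2.53 to -0.94, adjusted p = 0.0135, limma), and the call was lost without treated library 2 (adjusted p = 0.111), control library 5 (0.0578) or 6 (0.0538).

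clec-12 (WBGene00012103, chromosome I) had 16.0, 23.8 and 18.3 normalized counts in the treated and 34.2, 65.03 and 50.4 in the control libraries. It fell 2.45-fold (log2 fold change -1.29, adjusted p = 0.0385, limma) and held its call only without control library 4 (adjusted p = 0.00865). The values without treated libraries 1, 2 and 3 were 0.189, 0.0892 and 0.117, and those without control libraries 5 and 6 were 0.135 and 0.0965. clec-218 (WBGene00020938, chromosome V) had 82.6, 85.5 and 92.6 in the treated and 125, 189 and 162 in the control libraries, 1.79-fold lower (log2 fold change -0.84, adjusted p = 0.0182, limma). Its treated values were close together and under all controls. Without any one library but control library 4 its adjusted p lay between 0.0527 and 0.108.

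clec-78 (WBGene00018547, chromosome IV) was the best measured of the 8 by reads, at 381, 394 and 467 normalized counts in the treated and 790, 583 and 601 in the control libraries. It fell 1.58-fold (log2 fold change -0.66, standard error 0.139, adjusted p = 0.0109, limma). Without treated library 1 or 2 the adjusted p was 0.0869 or 0.0983. With a coding length of 10542 bases in 26 exons it is also far longer than the median tested member (1095 bases), so that its level per kb, 49.4, was below that of clec-258, 321.

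In the 8 members that fell, the 3 controls were not alike. Control library 4 was the lowest control in 6 of the 8, and control library 5 the highest in 5. Over all 112 tested members control library 4 was the lowest control in 50 and control library 5 the highest in 59. The median SD of the log2 values was 0.235 in treated and 0.327 in control cultures over the tested members, and 0.152 in treated and 0.235 in control cultures over all tested genes. The part of these controls in the falls was tested only by leaving each out, as given above.

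**Figure D3:**
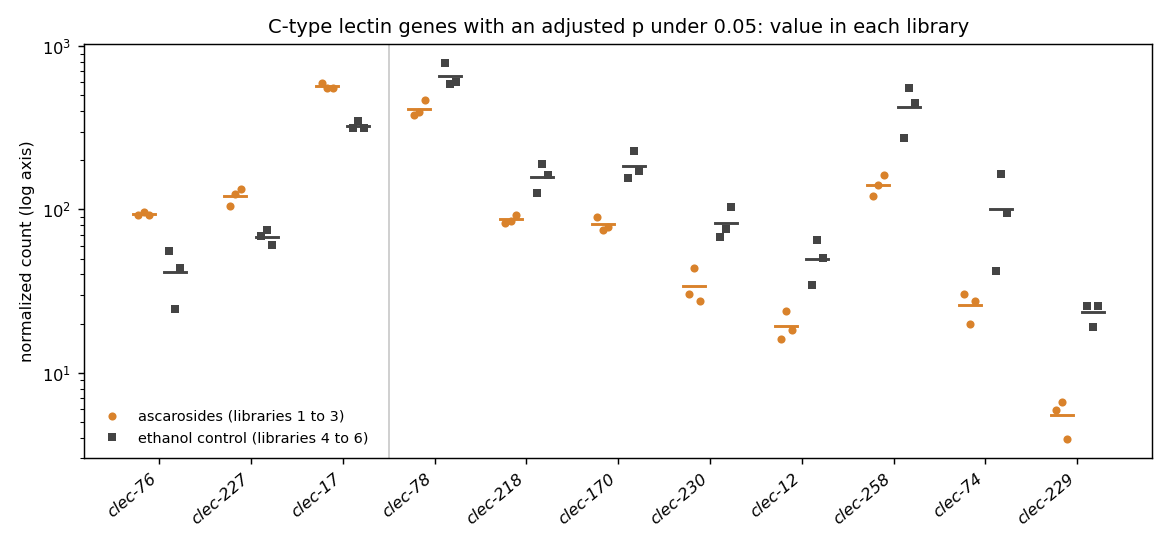
Normalized count (log axis) in each library for the 11 called C-type lectin genes, with ascaroside cultures as orange circles, control cultures as dark squares and group means as lines. In clec-76, clec-227 and clec-17, left of the grey line, all treated values lie above the controls, and in the other 8 all lie below, with clec-74 showing the widest controls (42.01 to 164).

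Many members sit side by side in the genome, and neighbours did not always change together. A run was counted where at most 2 other protein-coding genes separate a clec gene from the next. There were 46 such runs with 153 of the 240 members, the largest with 13 genes. Of the 11 called members 7 lie in runs, in 5 runs. Among the 18 runs with 2 or more tested members, 11 held log2 fold changes of both signs, and 1 run held a called rise and a called fall together. Of all 112 tested members 57 lay above 0 and 55 below, so mixed signs need not say anything about neighbours. The number of mixed runs among unrelated genes was not computed. Related neighbours can share reads. HTSeq-count kept multiply aligned reads apart from the genes, so values of close copies are less certain. None of the 11 called members has an exon that overlaps another annotated gene, while 24 of the 112 tested members do.

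The run with both directions is the one of 11 genes on chromosome IV from clec-67 to clec-79, 9 of them tested. clec-74 fell and clec-76 rose in it, with clec-75 between them at a log2 fold change of 0.02. This gene had 110, 62.7 and 65.2 normalized counts in treated libraries 1 to 3, against 73.9, 71.4 and 82.9 in control libraries 4 to 6. clec-73, next to clec-74, had 15.2, 7.60 and 6.52 in the treated and 7.78, 27.7 and 59.4 in the control libraries, and these overlapped (log2 fold change -1.29, not called). clec-72 had treated values of 763, 871 and 815 below its control values of 911, 1205 and 1015, at a log2 fold change of -0.35 that was not called (adjusted p = 0.155, limma). clec-67, a known target of the p38 immune pathway, stood at 611 ± 38.9 in treated and 663 ± 76.7 in control cultures (SD, n = 3 each).

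The second run on chromosome IV holds 6 genes from clec-165 to clec-170, of which 4 were tested. clec-170 fell, and its neighbour clec-169 stood at 5.90, 6.65 and 10.4 normalized counts in the treated and 18.7, 24.5 and 30.2 in the control libraries. Its groups did not overlap, but its log2 fold change of -1.57 was not called (adjusted p = 0.0677, limma). At the other end clec-166 had 204, 217 and 252 in the treated and 138, 131 and 190 in the control libraries. That was a log2 fold change of 0.56, also not called (adjusted p = 0.0963, limma). On chromosome V, clec-229 and clec-230 are the tested genes of a run of 4 and both fell. In another run there clec-227 rose, while clec-56 (mean of 456 ± 57.0 normalized counts in treated and 423 ± 70.8 in control cultures, SD, n = 3 each) and clec-57 (log2 fold change 0.21) were not called.

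**Figure D4:**
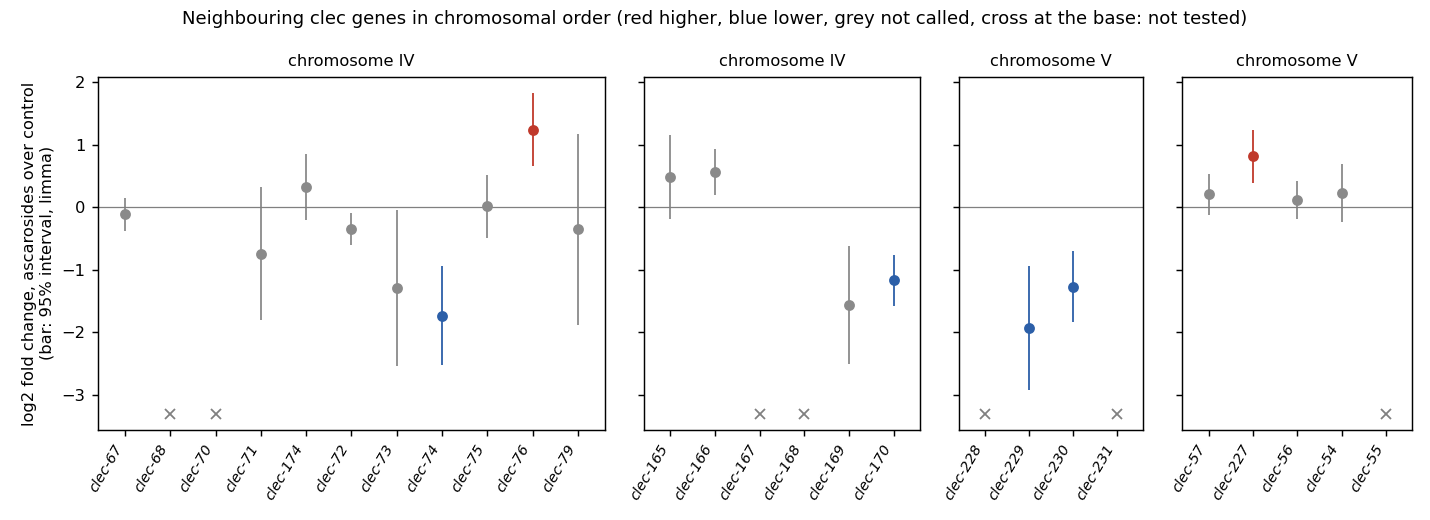
Log2 fold change of ascarosides over control with its 95% interval from limma for 4 runs of neighbouring clec genes in chromosomal order, from left to right clec-67 to clec-79 and clec-165 to clec-170 on chromosome IV and the runs of clec-229 and clec-227 on chromosome V. Red genes were called higher, blue ones lower, and crosses mark members too low to test. clec-74 (-1.73) and clec-76 (1.24) lie on opposite sides with clec-75 between them.

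Of the members listed here as known from infections with bacteria, only clec-17 was called in limma. Called members outside this list were not compared with infection studies. The list of 15 was written from general knowledge of worm infection studies, with earlier results of these data known. Of the 13 tested, 1 was called higher (clec-17) and 0 lower in limma, where 2.06% and 1.46% of all tested genes were. At an unadjusted p under 0.05 there were 2 higher and 4 lower, where 8.05% and 7.13% of all tested genes were. edgeR also called 1 higher and 0 lower, and DESeq2 2 higher and 0 lower. The second in DESeq2 was clec-49, known from work on Serratia infection. Its treated libraries held 274, 304 and 289 normalized counts, against 174, 222 and 211 in the controls, with no overlap and a log2 fold change of 0.52. Its adjusted p of 0.0631 in limma lay just past the threshold, and ranged from 0.0339 to 0.303 over all alternatives. The median of the 13 was -0.25, with 10 below 0.

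clec-60 and clec-61, neighbours on chromosome II known for their induction by Gram-positive bacteria, were low. clec-60 had 24.4, 20.0 and 37.8 normalized counts in the treated and 57.6, 50.1 and 37.0 in the control libraries. These overlap by a small margin (log2 fold change -0.82, adjusted p = 0.206, limma), and an annotated pseudogene overlaps clec-60 on the same strand. clec-61 had 5.90, 25.7 and 11.7 in the treated and 32.7, 11.7 and 17.9 in the control libraries. clec-41 had 1195, 1176 and 1124 in the treated and 1249, 1645 and 1294 in the control libraries (log2 fold change -0.25, adjusted p = 0.327, limma). clec-66 had 291, 283 and 335 in the treated and 356, 415 and 345 in the control libraries (log2 fold change -0.29, adjusted p = 0.314, limma), and in both genes the treated values lay below the controls. clec-65 averaged 1573 ± 54.6 in treated and 1456 ± 281 in control cultures, and its log2 fold change of 0.13 turned to -0.042 without control library 4. clec-4 averaged 280 ± 54.2 in treated and 343 ± 40.5 in control cultures, and clec-42 averaged 323 ± 43.4 in treated and 346 ± 23.7 in control cultures (SD, n = 3 each). clec-85, a target of p38 signalling whose exons overlap those of Y54G2A.40, averaged 398 ± 28.5 in treated and 431 ± 47.5 in control cultures.

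clec-86 had 27.8, 20.9 and 27.4 normalized counts in the treated and 32.7, 45.8 and 60.5 in the control libraries, without overlap but with an adjusted p of 0.206 in limma. An exon of alh-10 on the other strand overlaps it, and the stated methods do not say whether counting used the strand. clec-71 had a log2 fold change of -0.74 with a 95% interval from -1.81 to 0.32. clec-39 and clec-70 had means of 0.812 and 1.21 and were not tested. Of the members with a role in the nervous system, clec-38, which acts in axon outgrowth, was too low to test (mean 2.20). clec-48, listed with it, had a log2 fold change of 0.25 (95% interval -0.10 to 0.59).

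Some further members had treated values above all controls and were not called. clec-221 had 38.8, 24.7 and 31.3 normalized counts in the treated and 10.9, 24.5 and 10.1 in the control libraries, so that control library 5 came within 1 read's worth of treated library 2 (log2 fold change 1.099, adjusted p = 0.181, limma). An exon of F17C11.4 overlaps it on the other strand. clec-7 had 128, 72.2 and 82.1 in the treated and 56.0, 56.5 and 63.8 in the control libraries, with a log2 fold change of 0.63 (adjusted p = 0.195, limma). clec-24 and clec-27, of the run of 13 genes on chromosome V, had means of 10.2 and 7.27 and intervals that include 0 (-0.13 to 2.24 and -0.51 to 2.05). Of the 12 tested genes of that run 0 were called by limma, edgeR or DESeq2, and 0 had an unadjusted p under 0.05 in limma. On chromosome II, 0 of 22 tested members were called by limma, edgeR or DESeq2, with 3 at an unadjusted p under 0.05 in limma, all lower. Over all tested genes limma called 3.52%, and 15.2% had an unadjusted p under 0.05.

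None of the listed genes that steer intestinal immune output was called, where 3.52% of all tested genes were called in limma. In lists this short, 0 called lies near that share. The p38 cascade runs from the adaptor TIR-1 through the kinases NSY-1, SEK-1 and PMK-1 to the factor ATF-7, with VHP-1 as the phosphatase and SKN-1 as a stress factor downstream. Of these 7 genes 0 were called by limma, edgeR or DESeq2, and 0 had an unadjusted p under 0.05. Log2 fold changes lay between -0.20 (pmk-1) and 0.22 (nsy-1). These are transcript levels, and the activity of the kinases was not measured. pmk-1 averaged 475 normalized counts in treated and 546 in control cultures. The same held for 8 regulators of intestinal immune genes, among them the gut GATA factor gene elt-2 (139 in treated and 156 in control cultures), hlh-30 and zip-2, with 0 called by any of the 3 tools, 0 at an unadjusted p under 0.05 and a range of -0.17 to 0.15.

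Among other infection response genes, calls went in both directions. Of 12 listed irg and dod genes 10 were tested. Of these irg-5 was called higher and irg-3, dod-19 and dod-24 lower, where 2.06% and 1.46% of all tested genes were. irg-5, a target of p38 signalling, had 247, 257 and 219 normalized counts in the treated and 144, 117 and 165 in the control libraries (log2 fold change 0.77, adjusted p = 0.0127, limma). dod-19, named for acting downstream of the factor DAF-16, had 1364, 1506 and 1488 in the treated and 2020, 2377 and 2285 in the control libraries. It was the one of the 4 that stayed called with any one library left out (log2 fold change -0.61, adjusted p = 0.00244, limma). irg-5 was lost without treated library 1 (0.0892) or 2 (0.119). irg-3 (log2 fold change -0.68) was lost without treated library 1 (0.0810), 2 (0.0860) or 3 (0.0851) or control library 6 (0.0883), and dod-24 (-0.57) without any one library but control library 4 (0.0167). The median of the 10 was -0.47.

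Galectins, lectins of another fold that bind galactose-bearing sugars, were all expressed. Of 12 genes with lec- symbols, 2 were called higher (lec-5 and lec-7) and 0 lower in limma, edgeR and DESeq2 alike. Over all tested genes limma called 2.06% higher and 1.46% lower. Before adjustment, 3 galectins rose and 1 fell at p under 0.05 in limma, against 8.05% and 7.13% of all tested genes. Treated values lay above all controls in 4 galectins and below them in 0, against 9.78% and 9.53% of all tested genes. lec-5 had 3186, 3008 and 3095 normalized counts in the treated and 2175, 2049 and 2183 in the control libraries, a log2 fold change of 0.54 (adjusted p = 0.00428, limma) that stayed called with any library left out. lec-7 had 102, 78.9 and 75.6 in the treated and 51.3, 43.7 and 39.2 in the control libraries (log2 fold change 0.91, adjusted p = 0.0394, limma), and was lost without any one library but control library 4 (0.0146). The median of the 12 galectins was 0.04.

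**Figure D5:**
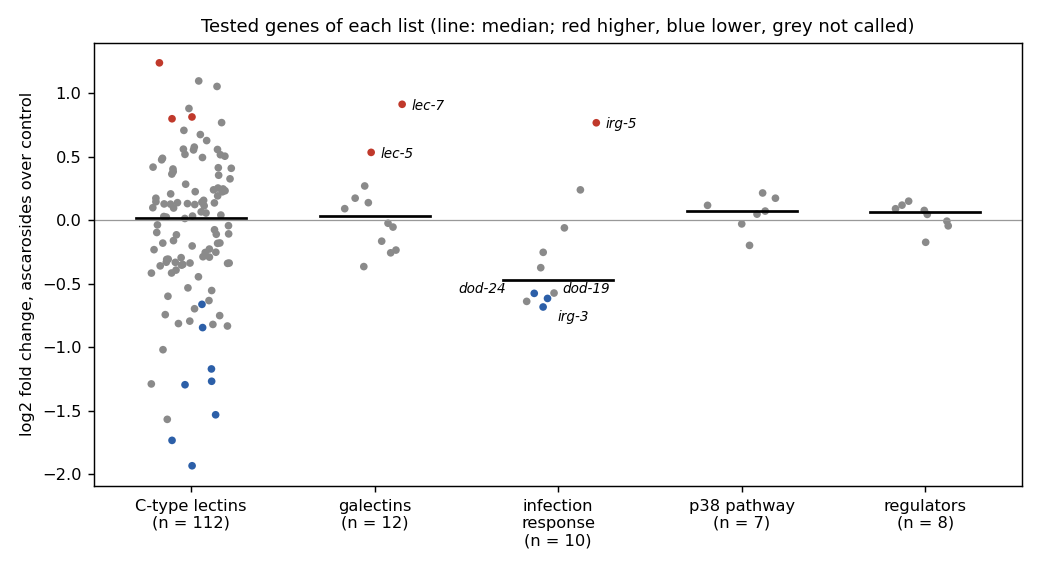
Log2 fold change of ascarosides over control for each tested gene of the C-type lectins, the galectins, the listed infection response genes, the p38 pathway and the regulators of intestinal immune genes, with the list median as a line. Called genes are red (higher) or blue (lower), and the last 2 lists hold none and stay between -0.20 and 0.22.

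Tissue markers were read beside these results, since many C-type lectins are made in the gut. The 6 intestinal markers summed to between 23226 and 26678 normalized counts in treated and between 22442 and 30496 in control libraries, and the ranges overlap. One of them, the gut esterase gene ges-1, was called higher, where 2.06% of all tested genes were. Its values were 1047, 1198 and 1115 in the treated and 638, 652 and 657 in the control libraries (log2 fold change 0.78, adjusted p = 4.20e-04, limma). The other intestinal markers overlapped between the groups and were not called. Their log2 fold changes were -0.17 (elt-2), -0.16 (act-5), 0.11 (ifb-2), 0.18 (elt-7) and 0.22 (pho-1). The 4 epidermal markers summed to 2914 to 3197 in treated and 3314 to 3895 in control libraries, without overlap. Of them 0 were called in limma, edgeR or DESeq2, and 2 were lower at an unadjusted p under 0.05 in limma, where 7.13% of all tested genes were. The 4 neuronal markers summed to 4454 to 4886 in treated and 4416 to 4436 in control libraries, and the 2 coelomocyte markers to 356 to 385 in treated and 316 to 333 in control libraries, both without overlap. No marker of either was called in limma, edgeR or DESeq2, though the coelomocyte gene cup-4 was higher at an unadjusted p of 0.0186 in limma. The other coelomocyte marker, unc-122, averaged 150 in treated and 155 in control cultures, with overlap. Each neuronal marker overlapped between the groups when taken singly. The treated mean was higher for snb-1, unc-119 and ric-19 and lower for rab-3 (911 in treated and 955 in control cultures). The sums for body wall muscle and pharynx overlapped. The muscle myosin gene myo-3 had 5808, 6108 and 6787 in the treated and 5681, 3742 and 4119 in the control libraries, and was called higher by DESeq2 (adjusted p = 0.0362) but not by limma (0.0647) or edgeR (0.0785). The muscle gene hlh-1 went the other way, at a mean of 112 in treated and 155 in control cultures, without overlap. Its log2 fold change was -0.47 (unadjusted p = 0.0126, limma), and it was not called in limma, edgeR or DESeq2. The part of these shifts in the changes of single lectin genes was not tested.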

How the data were processed

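RNA-seq of 6 N2 liquid cultures was read from one table, whose column names show ascarosides or control and carry numbers other than the titles' replicates. Poly(A) RNA was sequenced in single reads. According to the study's methods, reads were checked with ShortRead, aligned with tophat2 to Ensembl WBcel215, and counted per gene with HTSeq-count. The authors deposited a normalized signal per gene, called normalized count here, without stating the formula. The value of 1 read times the library's median-ratio size factor, computed from the recovered reads, was between 0.9999 and 1.0001 in the 6 libraries, so the values equal reads divided by such a factor. The submitters' processing notes name WBcel235 instead, so no coordinates are given. Versions and the strand setting are not given in the sources used here. The last 5 lines, of reads given to no gene, were dropped (33.1% to 41.8% of the column totals), and 0 further columns of values were present.

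Symbols came from a gene name table (43623 of 46726 identifiers), and chromosomes, exons and gene order from the Ensembl release 115 annotation of WBcel235. The symbols clec-15, clec-209 and clec-249 belong to a pair of identifiers each, none tested, so the 240 rows have 237 symbols. Whole reads came from division of every column by its smallest value above 0, and 100% of values came out whole (tolerance 0.01). limma 3.58.1 in R 4.3.3 (lmFit, eBayes with trend, 12.9 prior degrees of freedom, two-sided) was fitted to log2(normalized count + 1) for all genes with a mean of at least 5, adjusted over all of them. Fold changes are on this scale, which understates those of low genes. Values per kb use the union of annotated exons. Alternatives were pseudocounts of 0.5 and 5, no filter or a minimum mean of 50, upper-quartile or quantile scaling, array weights, robust eBayes and eBayes without trend, edgeR 4.0.16, DESeq2 1.42.0, and leaving out each library. The fits were tested on simulated counts.

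The members and lists were chosen with earlier results of these data known. Genes were named if called, if among the 8 largest rises or falls without overlap between the groups, if among the 5 highest per kb, if listed, or if next to the limit of 5. clec-29, clec-56, clec-57, clec-62, clec-64, clec-72, clec-73, clec-75, clec-79, clec-102, clec-105, clec-165, clec-175, clec-181, clec-217 and clec-261 were named after their values were seen. Plots used Python 3.11.15 and matplotlib 3.10.9. Limits for 0 reads cover counting error only, while the 95% intervals from limma carry the spread between cultures.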

Additional observations from a re-analysis of the deposited data

How the results depend on the processing

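No paired analysis was possible because library numbers in the table differ from the replicates in the titles, which leaves a replicate block undefined. The members called were 11 or within 1.5 times of it under every alternative with all libraries kept except eBayes without trend, which called 0 (0 higher, 0 lower, and 1 gene of all; 25 members were at an unadjusted p under 0.05). Without a filter 9 of 214 members were called, all among the 11. With a minimum mean of 50 there were 10 of 53, of which 9 were among them. Array weights gave 890 of all genes. Across fits without one library, the members called ranged from 4 to 16, those higher from 1 to 5, those lower from 3 to 13 and all genes called from 217 to 1436, with the highest count without control library 4 for all genes, for all members called and for those lower. The cause was not tested. Treated library 3, the shallowest, limits the low members most. The median of the members kept within 0.061 of 0 in every fit, and its sign changed (-0.061 without treated library 3, -0.037 with array weights, -0.029 with DESeq2, 0.02 with all libraries), so it gives no direction. The log2 fold change of clec-65 ranged from -0.042 without control library 4 to 0.222 without control library 5. The 11 called members kept their sign in every alternative that tested them.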

Other observations

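Members under the limit of 5 were not tested, and in 8 of them the 2 groups were apart, 5 with treated values above and 3 with them below. That is 7.84% of the 102 untested members with a read, beside 4.64% of all 9855 genes under the limit with a read (3.34% above and 1.30% below). clec-175 had 0, 0 and 2.61 normalized counts in treated libraries 1 to 3, against 3.89, 4.26 and 7.84 in control libraries 4 to 6. clec-105 had 0 reads in every treated library and 0.778, 2.13 and 3.36 normalized counts in the controls, and clec-181 had 0 in every treated library and 0.778, 1.07 and 1.12 in the controls. clec-217 had 2.53, 3.80 and 2.61 in the treated and 0.778, 1.07 and 0 in the control libraries, and clec-70 had 4.21, 0.951 and 1.30 in the treated and 0.778, 0 and 0 in the controls. clec-29, clec-102 and clec-261 also had the treated values above the controls, with at most 3.37 normalized counts in any library. All of these rest on a few reads, and in the fit without a filter none of them was called.

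Among the 22 tested members on chromosome II, the run of 5 genes from clec-62 to clec-66 holds the best expressed gene of the family, clec-63, and none of its genes was called. clec-62 averaged 558 ± 34.4 normalized counts in treated and 469 ± 55.1 in control cultures, and clec-64 averaged 47.7 ± 3.10 in treated and 33.6 ± 12.8 in control cultures (SD, n = 3 each). Of the 70 tested members in runs 10% were called, and of the 42 outside them 9.52%, against 3.52% of all tested genes.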
